A study of Mus musculus with 16 samples.

Results

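The collagen family was taken as the genes whose symbol, found through the RefSeq accession of the array's probes, reads Col, a number, a and a number, which gives the collagen type and the chain. Of 37167 genes on the array, 42 matched, on 61 probes, and 28 of these passed the filter on dim probes and were tested: 8 of 11 fibrillar collagens, 5 of 6 type IV (basement membrane) collagens, 2 of 5 type VI collagens and 13 of 20 others. The samples were gastrocnemius muscles, the large calf muscle, of untreated female C57Bl/6J mice at 3, 15, 24 and 29 months of age, with 4 samples per age and 1 array each. All 4 groups share the strain, the sex and the tissue, no genotype or agent separates them, and the 3-month samples are the reference here. No label states that the 4 samples at an age are 4 different mice; the p-values therefore describe the spread among these samples, some of which may be technical.

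Collagens are secreted proteins of intertwined chains and form much of the matrix around cells. Fibrillar collagens assemble into the load-bearing fibrils of the connective tissue sheaths of muscle and of tendon, with type I and type III the bulk of it and type V starting and limiting fibril growth. Type IV collagen is the sheet-forming collagen of the basement membrane that wraps every muscle fibre and capillary, and type VI forms beaded filaments beside that membrane; inherited loss of type VI causes muscular dystrophy. In muscle most collagen RNA is made by fibroblasts and their progenitors rather than by the fibres, so a level in whole muscle mixes cell types: fewer cells of a type and less RNA per cell cannot be told apart.

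Levels are given as log2 of the processed Cy3 signal relative to each array's 75th percentile, listed in the order of replicates 1 to 4, and are compared only within a gene. Between 48.0% and 60.9% of spots per array were well above background and none were saturated. The 3- and 15-month arrays lay on slide 1 and the 24- and 29-month arrays on slide 2, so any comparison between those pairs of ages cannot be told apart from slide; within a slide, each age lay in its own row of arrays, so age and row cannot be told apart. The arrays differed in their agreement with their own age group: limma's array weights were 0.265 and 0.423 for 29-month replicates 1 and 3 and 0.368 and 0.513 for 24-month replicates 2 and 4, against 0.995 to 2.07 for the other 12. The collagen calls at 29 against 3 months, apart from Col8a2 and Col9a1, are given with and without these 4 arrays. The lists of related genes and of cell markers were read with all 16 arrays only. The tissue label fitted its markers: the mean level of 10 muscle fibre genes lay between 9.02 and 9.66 on all 16 arrays. At 29 against 3 months limma called none of the 10 (0 at an unadjusted p under 0.05, beside 6258 of 21777 genes).

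At 29 months, 15 of the 28 tested collagens were lower than at 3 months and 1 was higher (limma, Benjamini-Hochberg adjusted over 21777 genes, threshold 0.05), where 7.66% of all genes tested were lower and 6.99% higher. The median change over the 28 was -0.97 on the log2 scale, against -0.04 over all genes. The 15 include Col8a2, which like Col8a1 passed the filter through its 3-month arrays alone. They also include Col9a1, whose probes disagreed in direction and whose called probe passed through its 3- and 15-month arrays alone. Without these 3 members, a choice made after their values were seen, 13 of 25 were lower and 1 higher, with a median of -0.94. The 13 still hold Col26a1, which passed the filter through its 3- and 15-month arrays alone. The count of lower collagens was 11 to 15 under 3 other scalings and with the authors' deposited values, which cover 24 of the 28. All genes lower then numbered 719 (array median), 1968 (quantile scaling) and 2136 (normexp background correction) of 21777. With the deposited values they numbered 1777 of 19363. Without the 4 arrays of low weight 11 collagens were lower and 1 higher (9.00% and 8.23% of all genes), and the median change was -0.55. By class, 6 of 8 fibrillar collagens were lower (median change -1.43), 2 of 2 type VI (-1.91), 2 of 5 type IV (-0.88) and 5 of 13 others (-0.71), or 3 of 10 without the 3 members in doubt; the difference between classes was not tested. In 16 of the 28, every 29-month array lay below every 3-month array, against 11.0% of all genes; without the 3 members this was 14 of 25.

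**Figure D1:**
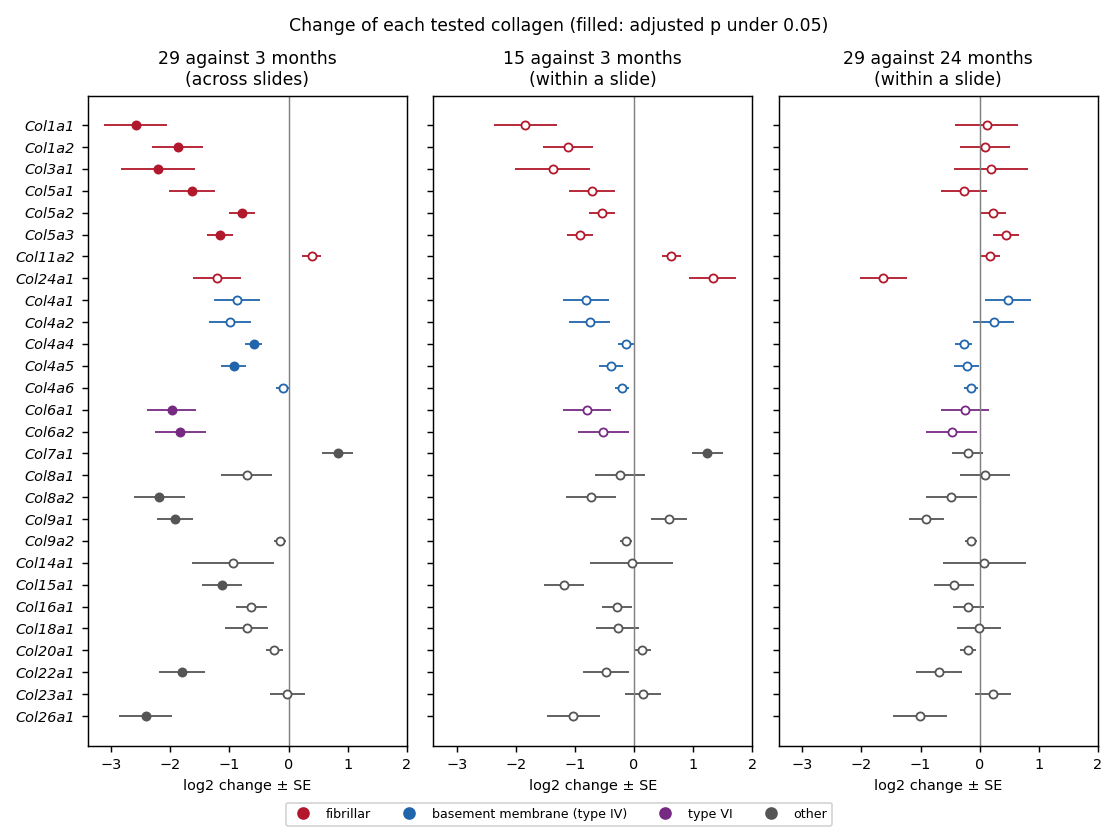
Log2 change with its standard error (x axis) for each of the 28 tested collagens (y axis), coloured by class, at 29 against 3 months (across slides), 15 against 3 months and 29 against 24 months (each within a slide); filled points passed an adjusted p of 0.05. Most points lie left of 0 in the first panel, with Col7a1 at 0.83 to the right, and the filled points there include Col8a2 and Col9a1, whose calls are in doubt; in the last panel, with no filled point, Col24a1 lies at -1.63.

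Type I collagen is the main fibril protein and is built from the chains of Col1a1 and Col1a2. Col1a1 read 3.65, 4.06, 4.9 and 4.28 at 3 months and 2.36, 2.15, 2.21 and 2.81 at 15 months. At the older ages it read 1.95, 0.26, 1.98 and 1.85 at 24 months and 1.06, 2.23, 0.16 and 3.07 at 29 months. Every 3-month array lay above all 12 others, while the 29-month arrays ran from 0.16 to 3.07. Mean levels were 4.22 ± 0.52 at 3 months and 1.63 ± 1.28 at 29 months (SD, n = 4 per age), a 6.03-fold difference (log2 change -2.59, SE 0.53, adjusted p = 0.00477). Without the 4 arrays of low weight the difference was 2.97-fold (adjusted p = 0.00921).

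Col1a2 read 4.82, 5.26, 5.68 and 5.1 at 3 months and 3.98, 4.0, 4.12 and 4.27 at 15 months. The 24- and 29-month values were 3.44, 2.28, 3.68 and 3.54 at 24 months and 3.03, 3.69, 2.01 and 4.59 at 29 months. The 3-month arrays again lay above all others, and, as in Col1a1, replicate 4 was the highest and replicate 3 the lowest at 29 months. The 29-month mean was 3.69-fold below that of 3 months (log2 change -1.88 ± 0.43 SE, adjusted p = 0.0089). Leaving out the 4 arrays of low weight gave 2.10-fold (adjusted p = 0.0176).

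Type III collagen, made from Col3a1 alone, runs in the same fibrils as type I and is rich in soft connective tissue. Col3a1 read 3.85, 4.26, 4.61 and 3.97 at 3 months and 2.68, 2.58, 2.5 and 3.41 at 15 months. On slide 2 it read 2.33, 0.04, 2.58 and 2.15 at 24 months and 1.37, 2.59, 0.23 and 3.67 at 29 months. All 29-month arrays lay below all 3-month arrays, with 29-month replicate 4, at 3.67, close to the lowest 3-month array, at 3.85. The difference was 4.63-fold (log2 change -2.21, SE 0.63, adjusted p = 0.0296). This call rested on single arrays: it was lost when 3-month replicate 2, 3 or 4 or 29-month replicate 1 or 3 was left out (adjusted p up to 0.0802), and without the 4 arrays of low weight the difference was 2.06-fold (adjusted p = 0.0509).

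**Figure D2:**
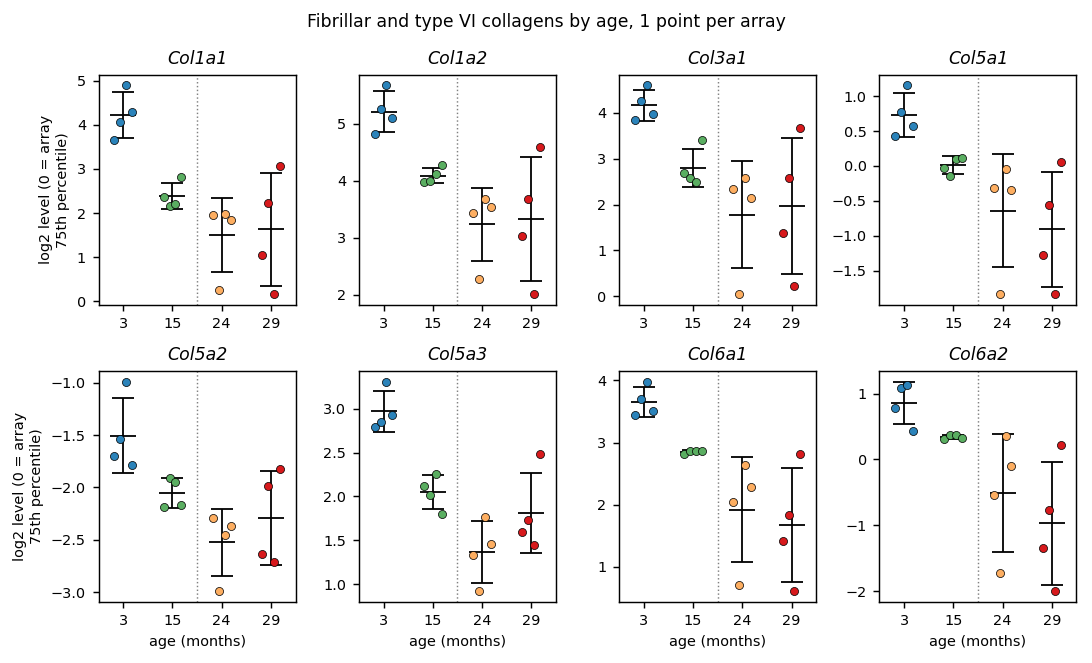
Log2 level (y axis, 0 being the array's 75th percentile) of 6 fibrillar and 2 type VI collagens by age in months (x axis); each point is 1 array, bars give the mean and SD of 4, and the dotted line separates the slides. In each panel the 3-month arrays sit highest and the 29-month arrays cover a wider range than the 3-month arrays, as in Col1a1, from 0.16 to 3.07 at 29 months.

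Type V collagen, of Col5a1, Col5a2 and Col5a3, copolymerises with type I and sets the width of fibrils. Col5a1 read 0.43, 0.77, 1.16 and 0.57 at 3 months and -0.03, -0.15, 0.1 and 0.12 at 15 months. The older arrays gave -0.32, -1.84, -0.05 and -0.35 at 24 months and -1.28, -0.56, -1.84 and 0.05 at 29 months. The 3-month arrays lay above all others, and the call of a 3.12-fold lower level at 29 months (log2 change -1.64, SE 0.39, adjusted p = 0.0114) held without the 4 arrays of low weight at 1.99-fold (adjusted p = 0.0108). Col5a2 read -1.7, -1.54, -0.99 and -1.79 at 3 months, -2.19, -1.91, -1.95 and -2.17 at 15 months, -2.29, -2.99, -2.45 and -2.37 at 24 months and -2.64, -1.99, -2.71 and -1.82 at 29 months. Here 29-month replicate 4, at -1.82, lay just below the lowest 3-month array, at -1.79, and the 1.72-fold lower mean (adjusted p = 0.029) did not hold when any of 4 arrays was omitted (3-month replicates 2 and 3, 29-month replicates 1 and 3), nor without all 4 arrays of low weight (adjusted p = 0.18). Col5a3 read 2.79, 2.85, 3.31 and 2.93 at 3 months and 2.12, 2.02, 2.26 and 1.8 at 15 months. On slide 2 the values were 1.33, 0.92, 1.77 and 1.46 at 24 months and 1.59, 1.73, 1.45 and 2.48 at 29 months. Its 3-month arrays lay above all others, and the 29-month mean was 2.23-fold below that of 3 months (log2 change -1.16 ± 0.22 SE, adjusted p = 0.00286). Leaving out the 4 arrays of low weight gave 1.82-fold (adjusted p = 0.0242).

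Neither of the remaining tested fibrillar genes passed the test at 29 against 3 months. Col11a2, a chain of the type XI collagen of cartilage fibrils, read -2.49, -2.13, -2.35 and -2.6 at 3 months, -1.51, -1.91, -1.73 and -1.93 at 15 months, -2.31, -2.25, -1.86 and -2.32 at 24 months and -1.63, -2.3, -1.91 and -2.16 at 29 months. Its 15-month arrays lay above all 3-month arrays, and at 29 against 3 months the ages overlapped (log2 change 0.39, adjusted p = 0.12). The other, Col24a1, a minor fibrillar collagen best known from bone, read -2.63, -2.17, -1.91 and -2.39 at 3 months, -1.72, -0.22, -0.87 and -0.97 at 15 months, -2.07, -1.54, -1.5 and -2.31 at 24 months and -3.69, -3.25, -4.64 and -2.36 at 29 months. The 3 highest values were from 15-month arrays, and the 3 lowest, none well above background, from 29-month arrays. At 29 against 3 months its log2 change was -1.21 (adjusted p = 0.056). Its step from 24 to 29 months differed from its step from 3 to 15 months by -2.96 (SE 0.57, adjusted p = 0.0313); the steps were -1.63 and 1.33. It was the single collagen called in this test, where 0.354% of all genes were called in the same direction, and the call was lost without any of 7 arrays (3-month replicates 1 and 4, 15-month replicates 2, 3 and 4, 24-month replicates 2 and 3) and without the 4 arrays of low weight (log2 difference -2.35).

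Type VI collagen has its first and second chains from Col6a1 and Col6a2; Col6a3, which gives the third, is not analysed here. Col6a1 read 3.44, 3.7, 3.98 and 3.51 at 3 months and 2.81, 2.87, 2.87 and 2.87 at 15 months. At the later ages the values were 2.05, 0.7, 2.64 and 2.29 at 24 months and 1.42, 1.84, 0.61 and 2.82 at 29 months. The 15-month arrays lay between 2.81 and 2.87, below every 3-month array, and the older arrays ranged from 0.61 to 2.82. Col6a1 at 29 months was 3.95-fold below its 3-month level (log2 change -1.98 ± 0.41 SE, adjusted p = 0.00526). Leaving out the 4 arrays of low weight gave 2.51-fold (adjusted p = 0.00625). Col6a2 read 0.78, 1.09, 1.13 and 0.43 at 3 months and 0.31, 0.37, 0.37 and 0.32 at 15 months. The slide 2 arrays read -0.54, -1.73, 0.36 and -0.1 at 24 months and -1.34, -0.77, -2.0 and 0.22 at 29 months. The 3-month arrays lay above all others here too, by the smallest margin at replicate 4. For Col6a2 the drop was 3.55-fold (log2 change -1.83 ± 0.43 SE, adjusted p = 0.0112) and, without the same 4 arrays, 2.19-fold (adjusted p = 0.0263). Both type VI calls held when any 1 array was left out and under all other settings tried.

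Type IV collagen in most basement membranes is the trimer of Col4a1 and Col4a2, which are neighbours on chromosome 8 and are read in opposite directions from starts 21 bases apart. Their promoter windows (250 bases before to 50 after the start, RefSeq, GRCm38.p6) share 78 bases and are shown because the pair moved together across arrays; Col4a1 is at chr8:11312777-11313076 on the minus strand and Col4a2 at chr8:11312555-11312854 on the plus strand. Each is written 5′ to 3′ along its own gene, with capitals for matches of the GC box GGGCGG and of CCAAT on either strand.
Col4a1: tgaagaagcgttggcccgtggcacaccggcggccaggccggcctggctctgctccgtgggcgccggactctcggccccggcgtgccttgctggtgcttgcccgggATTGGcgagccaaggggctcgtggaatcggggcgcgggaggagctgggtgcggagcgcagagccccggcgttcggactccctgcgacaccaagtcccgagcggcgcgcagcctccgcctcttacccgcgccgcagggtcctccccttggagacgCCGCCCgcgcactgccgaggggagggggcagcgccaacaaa
Col4a2: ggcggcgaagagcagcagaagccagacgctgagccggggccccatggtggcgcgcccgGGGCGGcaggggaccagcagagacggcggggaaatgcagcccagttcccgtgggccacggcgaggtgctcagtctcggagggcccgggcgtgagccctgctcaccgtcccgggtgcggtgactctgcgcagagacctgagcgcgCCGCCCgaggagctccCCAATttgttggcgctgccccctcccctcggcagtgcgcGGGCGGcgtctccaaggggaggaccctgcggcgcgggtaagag
Over the 26 windows of the 23 tested collagens in the table, GGGCGG was found in 17 (65.4%), against 35.7% of 32851 windows in all, CCAAT in 9 (34.6% against 37.4%) and TATAAA in 2 (7.69% against 13.6%), each searched on both strands. A match is a run of letters and was not tested for binding.

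Col4a1 read 2.51, 2.64, 2.66 and 2.62 at 3 months and 1.69, 1.75, 1.79 and 1.96 at 15 months. The older muscles gave 1.73, -0.27, 2.02 and 1.52 at 24 months and 1.1, 2.02, 1.4 and 2.42 at 29 months. Col4a2 read 2.51, 2.54, 2.66 and 2.52 at 3 months, 1.71, 1.83, 1.94 and 1.73 at 15 months, 1.76, -0.02, 1.93 and 1.64 at 24 months and 1.03, 1.86, 1.15 and 2.23 at 29 months. In both, the 4 arrays of 3 months and the 4 of 15 months formed tight groups that did not overlap, and 24-month replicate 2 lay far below all others. Neither passed the test at 29 against 3 months in the fit of all ages: the log2 change was -0.88 for Col4a1 (SE 0.39, adjusted p = 0.15) and -0.99 for Col4a2 (SE 0.35, adjusted p = 0.0729). Without the 4 arrays of low weight, Col4a2 passed with a smaller change, -0.51 (adjusted p = 0.0157), and Col4a1, at -0.39, did not (adjusted p = 0.0644).

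The type IV chains that did pass were those of the rarer trimers, found in specialised basement membranes such as that of the kidney filter. Col4a4 read 1.09, 1.07, 1.41 and 1.1 at 3 months, 1.21, 1.22, 0.95 and 0.71 at 15 months, 0.58, 1.03, 1.12 and 0.67 at 24 months and 0.58, 0.47, 0.54 and 0.72 at 29 months. Every 29-month array lay below every 3-month array and overlapped the 24-month arrays, and Col4a4 was 1.51-fold lower at 29 than at 3 months (log2 change -0.59, SE 0.14, adjusted p = 0.0135). Col4a5 read -1.6, -1.81, -1.3 and -1.93 at 3 months, -1.32, -2.37, -2.3 and -2.22 at 15 months, -2.24, -2.58, -2.4 and -2.26 at 24 months and -2.7, -2.78, -2.62 and -2.27 at 29 months. Its 24- and 29-month arrays lay below every 3-month array, and the level at 29 months was 1.91-fold lower (log2 change -0.93, SE 0.21, adjusted p = 0.0088). Without the 4 arrays of low weight the adjusted p was 0.0576 for Col4a4 and 0.0599 for Col4a5, at log2 changes of -0.58 and -0.87. Col4a6 had a log2 change of -0.10 (adjusted p = 0.639).

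**Figure D3:**
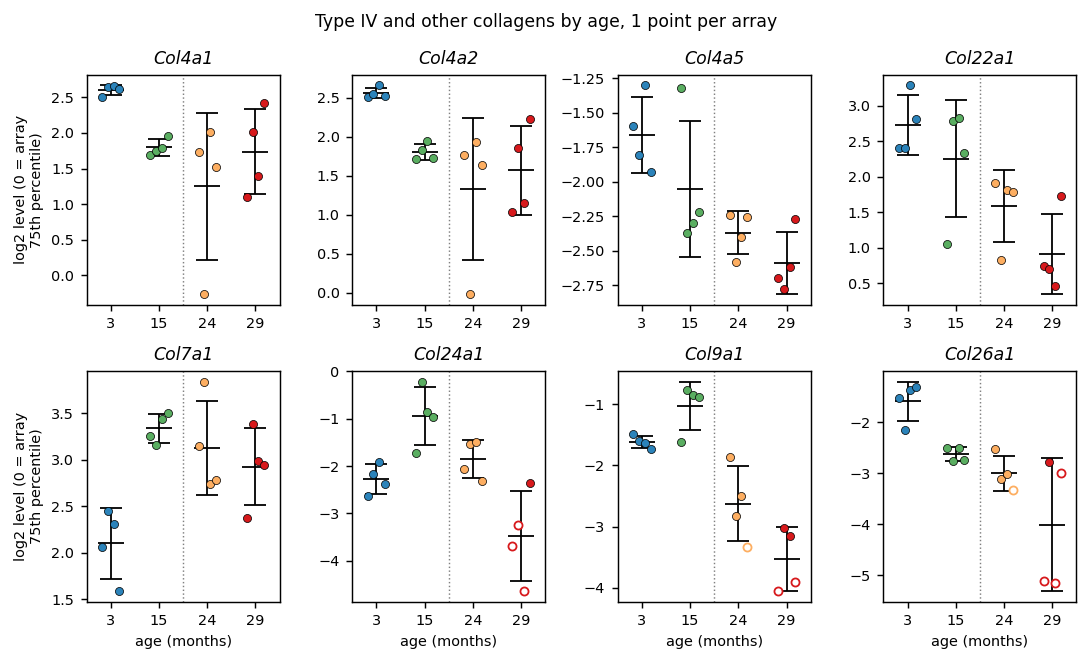
Log2 level (y axis, 0 being the array's 75th percentile) of 3 type IV and 5 other collagens by age in months (x axis); each point is 1 array, open where the probe was not well above background, bars give the mean and SD of 4, and the dotted line separates the slides. Col4a1 and Col4a2 form tight groups at 3 and 15 months, Col7a1 is lowest at 3 months, and Col24a1 and Col9a1 are highest at 15 months.

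Col7a1, the collagen of the anchoring fibrils that tie the skin's surface layer to the dermis, was the single member that was higher. Col7a1 read 2.06, 2.45, 2.31 and 1.59 at 3 months and 3.26, 3.16, 3.44 and 3.5 at 15 months. Slide 2 held 3.15, 3.84, 2.74 and 2.78 at 24 months and 2.38, 3.39, 2.99 and 2.95 at 29 months. All 15- and 24-month arrays exceeded every 3-month array, and 1 of the 29-month arrays, replicate 1, fell inside the 3-month range. It was 1.78-fold higher at 29 months (log2 change 0.83, SE 0.26, adjusted p = 0.0413), but the call was lost in 11 of 16 fits with 1 array omitted (adjusted p up to 0.125), all but those without 3-month replicate 2, 24-month replicate 2, 3 or 4 or 29-month replicate 1. It was 2.10-fold higher with the 4 low-weight arrays left out (adjusted p = 0.0107).

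Col22a1, the collagen of the junction between muscle fibre and tendon, is a fibril-associated type. Col22a1 read 2.4, 2.4, 3.29 and 2.81 at 3 months and 1.06, 2.78, 2.83 and 2.34 at 15 months. Later it read 1.91, 0.83, 1.81 and 1.79 at 24 months and 0.74, 0.7, 0.46 and 1.73 at 29 months. Every 29-month array lay below every 3-month array, and 15-month replicate 1 lay apart from its group at 1.06. The drop at 29 months was 3.52-fold (log2 change -1.81 ± 0.39 SE, adjusted p = 0.00617). It was 2.84-fold without the 4 arrays of low weight (adjusted p = 0.0489).

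Col15a1, a multiplexin of the zone outside the muscle and capillary basement membranes, read -0.91, -2.18, -0.28 and -1.36 at 3 months, -2.67, -2.3, -2.0 and -2.53 at 15 months, -1.66, -1.7, -2.26 and -1.88 at 24 months and -2.25, -2.17, -3.03 and -1.78 at 29 months. The ages overlapped at 3-month replicate 2, which read -2.18, and the 2.18-fold lower mean at 29 months (adjusted p = 0.0361) did not hold when any of 6 arrays was omitted (3-month replicates 1, 3 and 4, 29-month replicates 1, 2 and 3), nor without the 4 arrays of low weight (adjusted p = 0.212). A second Col15a1 probe changed by -1.09 (adjusted p = 0.0064). Col18a1, the related collagen whose end fragment is endostatin, read 0.36, 0.22, 0.6 and 0.33 at 3 months, -0.07, 0.26, 0.16 and 0.03 at 15 months, -0.41, -1.16, 0.06 and 0.19 at 24 months and -0.86, 0.2, -1.36 and 0.68 at 29 months. Its values overlapped between 3 and 29 months (log2 change -0.71, adjusted p = 0.222).

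Col9a1, a fibril-associated collagen of cartilage, read -1.49, -1.6, -1.64 and -1.73 at 3 months, -1.62, -0.77, -0.85 and -0.88 at 15 months, -1.87, -2.82, -2.5 and -3.33 at 24 months and -4.05, -3.03, -3.15 and -3.91 at 29 months. The 15-month arrays were the highest but for replicate 1, and all 29-month arrays, 2 of them not well above background, lay below the 3-month arrays. This probe was 3.78-fold lower at 29 months (log2 change -1.92, SE 0.30, adjusted p = 0.000743), while the gene's other tested probe had a log2 change of 0.02 (adjusted p = 0.954), so the probes disagreed and the gene's direction is uncertain. The probe of the lower call passed the filter through its 3- and 15-month arrays alone, where it was highest. Its selection was thus not independent of this difference.

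Col8a2, a short-chain collagen that builds networks beneath endothelia, read -2.59, -2.75, -2.17 and -2.12 at 3 months, -3.94, -2.85, -2.52 and -3.22 at 15 months, -4.45, -4.2, -4.47 and -3.35 at 24 months and -4.9, -4.47, -5.72 and -3.3 at 29 months. None of the 24- and 29-month values were well above background, so the probe gives only a bound: at least 2.17-fold lower at 29 months and at least 2.45-fold lower at 24 months. It passed the filter through its 3-month arrays alone, where it was highest, so these values are a description with no test; the same holds for its partner chain Col8a1, which read -2.52, -2.62, -2.83 and -2.75 at 3 months, -3.46, -2.89, -2.97 and -2.35 at 15 months, -3.17, -4.31, -2.88 and -3.58 at 24 months and -4.27, -2.64, -4.34 and -2.32 at 29 months. Col8a1 overlapped between 3 and 29 months (log2 change -0.71). Col26a1 read -1.53, -2.15, -1.37 and -1.32 at 3 months, -2.51, -2.76, -2.5 and -2.74 at 15 months, -2.53, -3.12, -3.02 and -3.34 at 24 months and -5.12, -2.78, -5.15 and -3.0 at 29 months. Only 1 of its 29-month arrays was well above background, and all lay below the 3-month arrays (log2 change -2.42, SE 0.45, adjusted p = 0.00275). Without the 4 arrays of low weight the change was -1.30 (adjusted p = 0.00407). Col26a1 passed the filter through its 3- and 15-month arrays, where it was highest, so its selection was not independent of this difference.

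Of the remaining tested members, Col14a1, a fibril-associated collagen of tendon and skin, read -0.18, 0.34, 0.08 and 0.07 at 3 months, -0.12, -0.06, -0.55 and 0.86 at 15 months, -0.84, -2.53, 0.06 and -0.46 at 24 months and -1.0, -0.01, -3.25 and 0.81 at 29 months. Its 29-month arrays ran from far below to above the 3-month range, and its change did not pass the test (-0.94, SE 0.70, adjusted p = 0.408). A second Col14a1 probe changed by -0.226 (SE 0.115, adjusted p = 0.215). Col9a2, Col16a1, Col20a1 and Col23a1 also did not pass, with log2 changes of -0.14, -0.63, -0.24 and -0.02. Second probes of Col16a1, Col20a1 and Col23a1 changed by -1.07, -0.232 and -0.197, and none passed.

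Other pairs of ages were compared in turn. At 24 against 3 months, which also crosses the slides, 7 collagens were lower (Col1a1, Col1a2, Col3a1, Col5a2, Col5a3, Col6a1 and Col8a2) and Col7a1 was higher, with 2.49% of all genes lower and 2.17% higher; without the 3 members in doubt it was 6 of 25 lower. Col1a1 was 6.56-fold lower (adjusted p = 0.0105) and Col5a3 3.03-fold lower (adjusted p = 0.00151); these were the calls kept when any 1 array was left out. The count of 8 became 2 without 3-month replicate 3 or 24-month replicate 2, 4 without 3-month replicate 4, and 5 without 3-month replicate 1 or 2 or 24-month replicate 1. Without the 4 arrays of low weight it was 11, all lower (1.87% of all genes). In the fit of all 16 arrays, the median log2 change of the 9 tested adipocyte markers between 3 and 24 months was 1.44. An unadjusted p under 0.05 was met by 4618 of 21777 genes and by 4 of these 9 markers, with 0 of the 9 called by limma. Their mean level lay between 1.97 and 2.29 at 3 months, 2.18 and 3.39 at 15 months, 2.51 and 4.93 at 24 months and 0.82 and 3.27 at 29 months, so all 24-month arrays lay above all 3-month arrays; the part of these cells in the collagen differences was not tested.

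At 15 against 3 months, both on slide 1, Col7a1 alone was called, by a log2 change of 1.24 (SE 0.26, 2.36-fold higher, adjusted p = 0.0314), with 0.693% of all genes higher and 0.285% lower; the call was lost without any 15-month array or 3-month replicate 1, 3 or 4. At an unadjusted p under 0.05 there were 11 of the 28 collagens, beside 2335 of 21777 genes. In 13 collagens all 15-month arrays lay below all 3-month arrays and in 3 (Col7a1, Col11a2 and Col24a1) above, against 6.35% and 5.72% of all genes. In a fit of just the 8 arrays on slide 1, which leaves out the spread of the older arrays, 12 collagens were called, with 1.63% of all genes lower and 1.68% higher. The 9 that were lower were Col1a1, Col1a2, Col3a1, Col4a1, Col4a2, Col5a1, Col5a3, Col6a1 and Col26a1, and the 3 that were higher were the same 3 whose arrays did not overlap.

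In that fit Col4a1 and Col4a2 had the smallest adjusted p-values of the family: Col4a1 dropped 1.75-fold (log2 change -0.81 ± 0.09 SE, adjusted p = 0.0038) and Col4a2 1.69-fold (log2 change -0.75 ± 0.08 SE, adjusted p = 0.0042). The drop was 3.58-fold in Col1a1 (log2 change -1.84 ± 0.25 SE, adjusted p = 0.0103) and 1.74-fold in Col6a1 (log2 change -0.8 ± 0.12 SE, adjusted p = 0.0123). Without the 4 arrays of low weight, the fit of all ages called 11 collagens at this step, 8 lower and 3 higher (1.78% and 1.91% of all genes).

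At 29 against 24 months, both on slide 2, no collagen was called by limma, with 1.91% of all genes called. An unadjusted p under 0.05 was reached by 3 of the 28 collagens (Col9a1, Col24a1 and Col26a1) and by 3330 of 21777 genes. The median fibrillar change was 0.15 at this step, -0.82 at 15 against 3 months and -0.77 at 24 against 15 months. At 24 against 15 months, across the slides, no collagen was called by limma either, with 0.0964% of all genes called. There 6 of the 28 collagens and 2922 of 21777 genes had an unadjusted p under 0.05. A line in age with slide as a term, which uses only the differences of age within slides, called 0 collagens and 0.634% of all genes. The line gave 8 of the 28 collagens and 2370 of 21777 genes at an unadjusted p under 0.05. Its coefficients per 10 months were -1.27 for Col1a1 (adjusted p = 0.228) and 0.50 for Col11a2 (adjusted p = 0.0784). Without the slide term, 15 collagens were lower, with 8.04% of all genes.

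**Figure D4:**
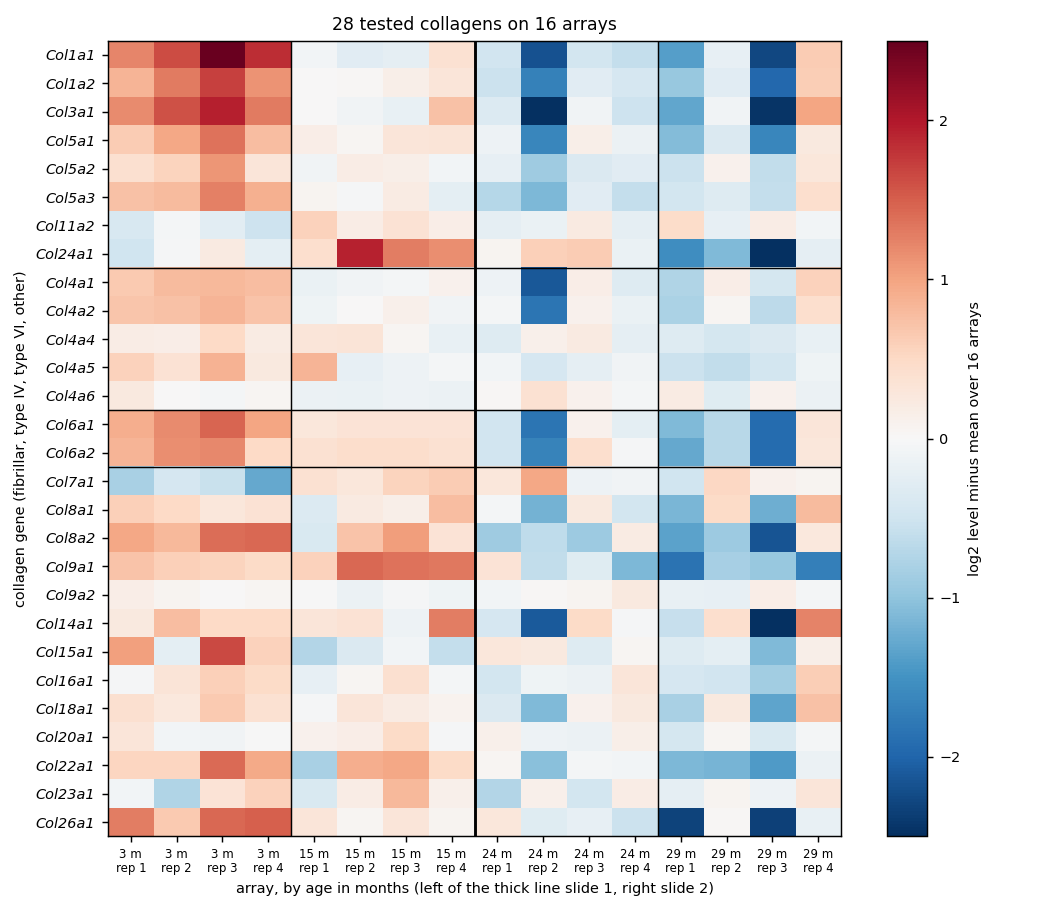
Heat map of the 28 tested collagens (rows, by class) on the 16 arrays (columns, by age in months and replicate); colour gives the log2 level minus the gene's mean over the 16 arrays, drawn between -2.5 and 2.5. The 3-month columns are red in most fibrillar, type IV and type VI rows, and the columns of 24-month replicate 2 and 29-month replicates 1 and 3 are blue in the same rows, unlike 29-month replicate 4.

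Most fibrillar collagens and the 2 tested type VI chains varied together from array to array as well as between ages. By the median over pairs, type IV and other collagens did so less. Averaged over the 28 genes, the deviation from each gene's 16-array mean was 0.48, 0.51, 0.84 and 0.53 at 3 months and -0.81, -0.25, -1.14 and 0.22 at 29 months, so that 29-month replicate 4 sat above the mean and the other 29-month arrays below it. The paired chains of a trimer correlated over the 16 arrays, of which each array gives both values: Pearson's r was 0.987 for Col1a1 with Col1a2 (Spearman's rho 0.971), 0.984 for Col4a1 with Col4a2 (0.968), 0.900 for Col5a1 with Col5a2 (0.874) and 0.982 for Col6a1 with Col6a2 (0.974). The permutation p was 1e-05 for each r, the smallest that 100000 resamples can give, and at most 3e-05 for rho, before and after adjustment over the 4 relations. Arrays were shuffled over all ages and slides, so these p-values also hold the differences between ages and slides that both chains share. Without the 2 arrays farthest from the median of the first chain, r was 0.987, 0.963, 0.858 and 0.963, and about the age means it was 0.977, 0.984, 0.862 and 0.981. On slide 1 alone r was 0.985, 0.963, 0.905 and 0.902, and on slide 2 alone 0.990, 0.986, 0.812 and 0.986. Some chains of other trimers followed Col1a1 about as closely as its partner did, and others did not. About the age means of the 16 arrays, r with Col1a1 was 0.98 for Col1a2 and also 0.98 for Col3a1. It was 0.96 for Col5a1, 0.93 for Col6a1, 0.91 for Col14a1 and 0.90 for Col18a1. In the remaining tested collagens r with Col1a1 ran from 0.87 for Col6a2 down to -0.80 for Col4a6. Between all pairs of a class, about the age means, the median r was 0.77 over the 28 fibrillar pairs, 0.03 over the 10 type IV pairs and 0.29 over the 78 pairs of the other collagens.

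Genes that act on collagen were described from lists of modifying, processing, binding and degrading proteins. Over all genes, 7.66% were lower and 6.99% higher at 29 against 3 months, and each count is to be set against these shares. How far these results rest on the 4 arrays of low weight was not tested. Of 29 genes for hydroxylation, folding and export, 6 were lower and 1 (P3h4) higher at 29 against 3 months, with a median change of -0.15. The smallest p-values were those of Fkbp14, a folding enzyme of the secretory pathway (log2 change -0.72, adjusted p = 0.0034), of Sparc, a collagen-binding matrix protein (-1.04, adjusted p = 0.00464), and of Serpinh1, the collagen-specific chaperone HSP47 (-1.22, adjusted p = 0.00713). Of 10 tested genes for propeptide removal and crosslinking, 2 were lower, the propeptidase Adamts14 (-0.89, adjusted p = 0.00693) and the crosslinking enzyme Loxl2 (-1.45, adjusted p = 0.0231), with a median of -0.69. Pcolce, the enhancer of propeptide removal, had a log2 change of -1.18 (adjusted p = 0.065).

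Among 8 tested collagen receptors and uptake genes, the integrin chain Itga1 (-0.96, adjusted p = 0.0224) and the collagen uptake receptor Mrc2 (-1.19, adjusted p = 0.0295) were lower and Cd36 was higher (0.97, adjusted p = 0.0126). No collagenase, gelatinase or inhibitor of them was called by limma among 8 tested (median change -0.47). Of the 8, 3 had an unadjusted p under 0.05, beside 6258 of 21777 genes. The gelatinase Mmp2 had a log2 change of -1.43 (adjusted p = 0.0747). Of 19 tested fibril partners, Fmod, the proteoglycan fibromodulin (-1.17, adjusted p = 0.000535), Sparcl1 (-1.24, adjusted p = 0.00974) and Kera were lower, with a median of -0.73; Kera, keratocan, was well above background on all 4 arrays at 3 months and on 0 at 29 months, so it has no measured size. Of 15 tested basement membrane partners, 5 were lower (Lamc1, Nid2, Hspg2, Fras1 and Frem2) and Sdc4 higher, with a median of -0.69; the laminin chain Lamc1 changed by -0.94 (adjusted p = 0.00568). Fras1, like Kera, was not well above background on any 29-month array, and both passed the filter through their 3-month arrays alone, so their calls are no support for a difference.

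Markers of the cells that make collagen were read on the same arrays. Of 17 fibroblast and progenitor markers, 1 (Cd34) was lower at 29 against 3 months and none higher, near the 7.66% and 6.99% of all genes, with a median change of -0.41. Their mean level lay between 2.77 and 3.30 at 3 months, 2.92 and 3.02 at 15 months, 1.21 and 2.90 at 24 months and 1.77 and 3.05 at 29 months, and the lowest arrays were 24-month replicate 2 and 29-month replicate 3, which were also the lowest of their ages for the collagens. At 15 against 3 months the fibroblast and progenitor marker median was -0.07, where the fibrillar median was -0.82. Medians at this step were -0.32 for tendon, -0.25 for smooth muscle and pericyte and -0.15 for endothelial markers, against -0.01 over all genes. Of 6 tested tendon markers of 9, 3 (Fmod, Chad and Kera) were lower at 29 months, with a median of -0.74. Mean levels were -0.17 to 0.51 at 3 months and -1.31 to -0.42 at 29 months. Kera passed the filter through its 3-month arrays alone, so here too its call is no support for a difference. Tnmd, Mkx and Cilp2 did not pass the filter, and Fmod and Kera are also among the fibril partners. Of 11 smooth muscle and pericyte markers 5 were lower (median -0.96; mean levels 2.54 to 2.93 at 3 months and 1.72 to 2.33 at 29 months), and of 11 endothelial markers 3 were lower (median -0.39), again beside 7.66% of all genes lower. The part of these cell types in the collagen differences was not tested.

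**Figure D5:**
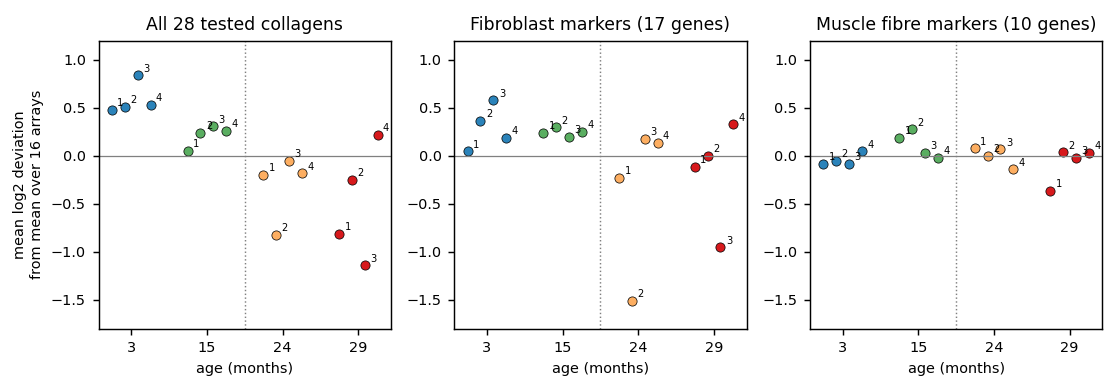
Mean log2 deviation from the 16-array mean (y axis) by age in months (x axis) for the 28 tested collagens, the 17 fibroblast markers and the 10 muscle fibre markers; each point is 1 array, numbered by replicate, and the dotted line separates the slides. The collagens are highest at 3 months, at 0.48 to 0.84, while the fibroblast markers overlap between 3 and 15 months and drop on 24-month replicate 2 and 29-month replicate 3.

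None of 9 tested adipocyte, 8 macrophage or 2 cartilage and bone markers were called at 29 against 3 months by limma. At an unadjusted p under 0.05 there were 0, 2 and 2 of them, beside 6258 of 21777 genes. Of 6 tested lymphocyte and plasma cell markers 1, Jchain, was higher, beside 6.99% of all genes. The mean level of the 6 lay between 0.17 and 0.41 at 3 months. At 29 months it was 1.95, 0.38, 0.63 and 0.78, the highest being replicate 1, an array of low weight.

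Among the 14 collagens that were not tested, 10 were well above background on 0 arrays: Col2a1, Col4a3, Col6a5, Col6a6, Col9a3, Col11a1, Col13a1, Col17a1, Col19a1 and Col28a1. Col25a1, a transmembrane collagen of muscle that guides its innervation, was above background on 10 arrays, spread over all 4 ages. Col27a1 was above background on 2 arrays, and Col6a4 and Col10a1 on 1 each. The 22 tested members that were above background on all 16 arrays held 12 of the 15 lower calls and the higher call at 29 against 3 months.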

How the data were processed

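Total RNA of 16 gastrocnemius samples, selected for RNA integrity per the labels' protocols, was labelled with Cy3 and hybridised to 1-colour Agilent arrays of 62976 spots. Intensities are the processed signals that Agilent Feature Extraction 10.7.1.1 wrote, background-corrected and not scaled between arrays, per the file headers. The authors' deposited series table holds log2 values of 55821 spots, whose scaling no label or header states; its rows match the scanner files by spot number (r 0.985 to 0.993 per array) and it served as an alternative. The files name accessions and not symbols, so 26540 of 55588 probes were named through RefSeq's mouse gene table (GRCm38.p6, names only), after control spots and 93 probes with outlier marks were left out.

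Each array's 75th percentile was subtracted from its log2 intensities. Probes were kept (28435) if the scanner marked them well above background on every array of some age, and a gene was read by its kept probe of highest mean (21777 genes). limma 3.58.1 (R 4.3.3) fitted the 4 age means over all 16 arrays, with 12 residual and 2.73 prior degrees of freedom and Benjamini-Hochberg adjustment over all genes; the code was tested on simulated data. Within an age no arrays were duplicates. A probe not above background on any array of an age gives a bound, computed against the dimmest signal well above background. The number of arrays limits the precision. The members, classes and lists were chosen with earlier results of these data known. Every member called in any comparison, and fixed genes of each class, are given with all arrays; of related lists, the 3 genes of smallest p. Col6a3 and Col12a1 had no probe matched by accession and are not analysed here. The result of 1 other marker list is not reported here.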

Additional observations from a re-analysis of the deposited data

Results flagged for a closer look

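In 13 of 128 groups of 4 arrays (1 collagen at 1 age), an array stood apart, in that its gap to the nearest other array, as a share of the group's range, exceeded Dixon's tabulated critical value of 0.829; chance marks about 1 in 20 groups. At 24 months the lowest array stood apart in 5 genes, replicate 2 in each: the share was 0.921 for Col1a1, 0.832 for Col3a1, 0.852 for Col4a2, 0.834 for Col5a1 and 0.884 for Col22a1. At the same age the highest array stood apart for Col11a2 (0.846) and for Col10a1 (0.844), whose replicate 1 read -2.68 and was its only array above background. At 15 months the share was 0.857 for the highest array of Col4a5, 0.862 for the lowest of Col6a1, where the arrays lay between 2.81 and 2.87, and 0.875 for the lowest of Col9a1. At 3 months it was 0.907 for the highest array of Col4a4. At 29 months it was 0.829 for the lowest array of Col25a1, which was not above background, and 0.906 for the highest of Col6a4, a type VI chain that read -0.69 on replicate 1 and was above background on no other array. The mark of Col25a1 rests on the last decimal of the critical value, which was computed and shortened, not rounded, to the tabulated one; rounded up, it would not mark this gene.

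Col24a1 was the collagen whose steps within the slides differed by a test: the step from 24 to 29 months minus the step from 3 to 15 months was -2.96 (limma, adjusted p = 0.0313). The call was lost when any 1 of 7 arrays was left out and under 4 of 10 other settings. Only 1 of the 4 29-month arrays was well above background for Col24a1, so the size of this difference is uncertain.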

How the results depend on the processing

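At 29 against 3 months, 12 of the 16 collagen calls were kept without any 1 array, and 9 of those in every other setting that held the gene. The count of calls ran from 12 to 18 with 1 array left out. With all arrays, 14.6% of all genes were called at this comparison. The share of all genes was not taken for the fits with 1 array left out, here or below. The 9 include Col26a1, held by 11 other settings, and Col8a2, held by 12, where the rest were held by 13. Col8a2 passed the filter at 3 months alone, so its call is no support for a difference. The 12 also include Col9a1. The called probes of Col26a1 and Col9a1 passed the filter at 3 and 15 months alone, where they were highest. Their selection was thus not independent of the difference, whatever the settings that kept these calls. The call of Col9a1 was the single direction that turned: with only probes above background on all 16 arrays, its other probe is read and the change was 0.02. With 1 array left out, the count ran from 2 to 11 at 24 against 3 months, from 0 to 1 at 24 against 15 months, from 0 to 2 at 15 against 3 months, from 0 to 1 at 29 against 24 months, from 0 to 1 for the line in age with slide and from 0 to 1 for the difference of steps. At 24 against 3 months, no filter gave 4 calls (1.26% of all genes called, 4.66% in the fit as reported). At 24 against 15 months, normexp background correction and array weights gave 1 each (0.285% and 0.638% of all genes, from 0.0964%). At 15 against 3 months, scaling by the array median and no filter gave 0 (0.409% and 0.285% of all genes, from 0.978%), normexp and the deposited values 2 each (1.3% and 1.54%), array weights 6 (5.11%), the fit without the 4 arrays of low weight 11 (3.68%) and the fit of those ages alone 12 (3.31%). At 29 against 24 months, normexp gave 2 and a trended, robust prior 1 (4.47% and 2.39% of all genes, from 1.91%). For the line in age with slide, array weights gave 6 (5.01% of all genes, from 0.634%), no slide term 15 (13.6%) and leaving out the 4 arrays 4 (2.69%). For the difference of steps, quantile scaling, the array median, no filter and the filter on all 16 arrays gave 0 (0.135% to 0.735% of all genes, 0.67% in the fit as reported), the deposited values, the trended prior and array weights 2 each (4.86%, 0.726% and 1.22%), leaving out the 4 arrays 3 (0.583%) and normexp 4 (2.7%). The causes were not tested, beyond the fewer arrays or genes that some settings hold by construction.

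Scaling by the array median moved the median of all genes at 24 against 3 months to -0.15. Leaving out the 4 arrays of low weight was chosen after seeing the data. Normexp used the spots' median signals. Slide as a random block gave a correlation of 0 beside the age means and so no result of its own. Signal over background limits what can be said of Col8a2, Col9a1, Col24a1 and Col26a1 at 29 months.

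Replicate numbers did not pair the samples: deviations of same-numbered arrays correlated at -0.471 to 0.303 over 24 pairs, 6 of them over 0.1, and 2 of 16 arrays matched their own number best. With the replicate number as a block, 14 collagens were called at 29 against 3 months, 7 at 24 against 3 months, 1 at 15 against 3 months, 1 for the difference of steps and 0 in the other comparisons.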
